A study of Mus musculus with 11 samples.

Results

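Kidney T cells sorted as CD4+CD127-PD-1+ were compared with kidney T cells sorted as CD8+CD127-PD-1+, across all expressed genes. The members were chosen by their sorting labels: 2 CD4+CD127-PD-1+ libraries and 3 CD8+CD127-PD-1+ libraries, which make 5 of the 11 libraries of the series. The other 6 libraries hold cells of both lineages from the CD127+PD-1- gate and are used where the lineage difference is set beside that of the opposite state. Every mouse was wild type, had been immunised with recombinant mouse myeloperoxidase (MPO) and was later given low-dose sheep anti-mouse basement membrane globulin, a model of glomerulonephritis. Kidneys were taken 21 days later, and cells of 3 mice were pooled for each sort, so p-values measure the spread of pools, not of single animals. No group lacked the disease trigger, and no source used here gives mouse strain, sex or age. The CD4+ group has n = 2 because, by the labels, its remaining sort did not pass quality control.

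CD4 and CD8 are coreceptors that bind MHC class II and class I molecules, and they mark the helper and the cytotoxic lineage of T cells. CD127 (gene Il7r) is the alpha chain of the interleukin 7 receptor and is lost on many activated T cells, and PD-1 (gene Pdcd1) is an inhibitory receptor gained after antigen stimulation. CD127-PD-1+ cells are therefore usually read as activated or effector cells. Helper cells act through cytokines and CD40 ligand and include FOXP3+ regulatory cells, and cytotoxic cells kill through perforin and granzymes.

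The libraries were made from 2 ng of total RNA and read as 75-base single reads. Total counts per library were 14327790 and 14671212 in the CD4+ libraries and 14890556 to 16057310 in the CD8+ libraries, with 21228 to 21849 genes detected in each. Values below are CPM, read counts scaled to a common library size after correction for library composition. Differences are log2 fold changes of CD4 minus CD8 from edgeR's quasi-likelihood test, and a gene is called at a Benjamini-Hochberg adjusted p under 0.05 over the 16365 genes tested. The genes used for sorting check the labels and are not findings. Cd4 measured 588 and 680 CPM in the CD4+ libraries and 9.71, 1.20 and 3.72 CPM in the CD8+ libraries. Cd8a measured 0.807 and 0 CPM in the CD4+ libraries and 754, 530 and 470 CPM in the CD8+ libraries. Cd8b1, the beta chain of CD8, was 5.98 and 1.75 CPM against 418, 310 and 323 CPM. The groups were thus far apart on both coreceptors, as their labels state. Il7r measured 13.8 to 27.2 CPM in the 5 libraries and 329 to 455 CPM in the 6 CD127+PD-1- libraries. Pdcd1 measured 16.5 to 34.3 CPM in the 5 libraries and at most 2.57 CPM in the CD127+PD-1- libraries. Neither gene was called between CD4+ and CD8+ cells (log2 difference 0.41, SE 0.22, adjusted p = 0.475 for Il7r, and -0.22, SE 0.37, adjusted p = 0.873 for Pdcd1).

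Of the 16365 genes, 400 (2.44%) were called between the lineages. CD4+ cells were higher for 262 genes (1.6%) and lower for 138 genes (0.843%). These shares of all tested genes are the background for each list count below. More than 2-fold differences made up 215 of the higher and 112 of the lower calls. The library values of the groups did not overlap for 261 of the 262 higher and all 138 lower calls, against 27.8% of all tested genes. Among protein-coding genes 201 were higher and 112 lower. The median log2 difference of all tested genes was -0.02. The number of calls depends on single libraries: without CD4+ replicate 2, which leaves 1 CD4+ library whose spread is assumed to be that of the other groups, 96 genes were higher and 30 lower. Without CD8+ replicate 2 the counts were 120 and 69, and without CD8+ replicate 3 they were 130 and 68.

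**Figure D1:**
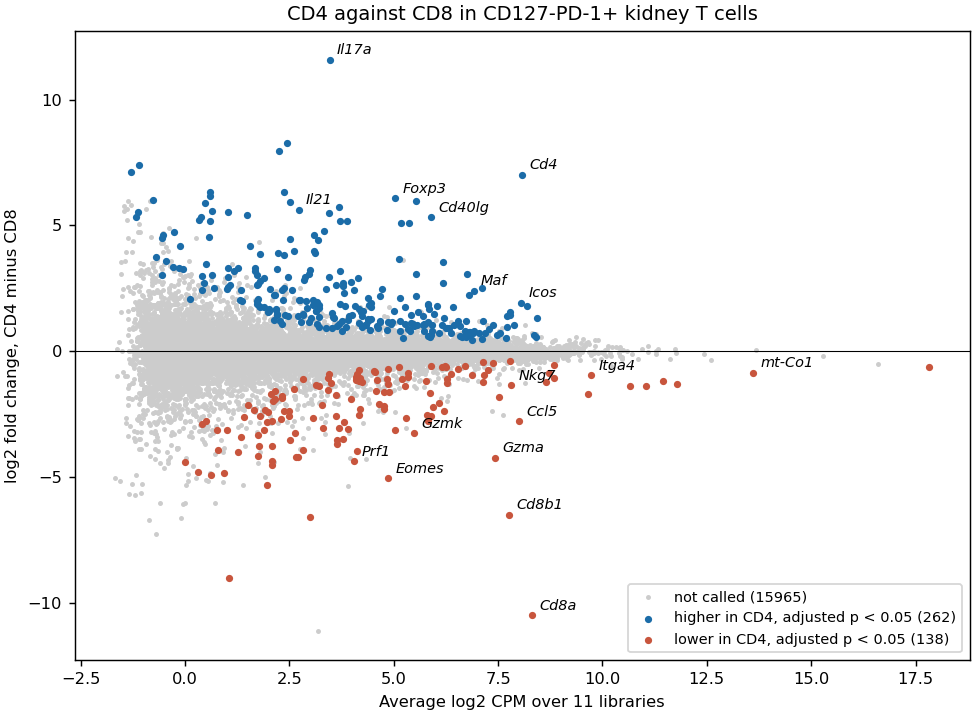
Log2 fold change of CD4 minus CD8 in CD127-PD-1+ cells (y axis) against average log2 CPM over 11 libraries (x axis), 1 point per tested gene. Blue points are the 262 genes called higher and red points the 138 called lower in CD4+ cells. The fitted value of Il17a is not a bound, since all CD8+ libraries were at 0.

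Most CD4 lineage genes were higher in CD4+ cells. Of 10 CD4 lineage genes tested, 9 were called higher and none lower (list median log2 difference 2.51, beside -0.02 for all tested genes). Cd4 itself is among the 9 and in the median, and as a sort gene it is no finding. Cd28 was the member not called (0.38, SE 0.19). Cd40lg encodes CD40 ligand, through which helper cells activate B cells and antigen-presenting cells. It measured 104 and 126 CPM in the CD4+ libraries against 3.58, 1.87 and 3.12 CPM in the CD8+ libraries (log2 5.32, SE 0.25, adjusted p = 2.1e-06). Zbtb7b encodes ThPOK, the factor that sets helper lineage fate, and measured 34.7 and 48.5 CPM against 7.60, 11.9 and 13.3 CPM (1.93, SE 0.25). The costimulatory receptor gene Tnfrsf4 (OX40) was 14.9 and 32.3 CPM against 0.657, 0.971 and 1.26 CPM (4.60, SE 0.50). Each of these genes had every CD4+ library above every CD8+ library. That held for 261 of the 262 higher calls, so it is no separate result. In bulk libraries such as these, fewer cells of a type and less RNA per cell cannot be told apart.

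Il21 encodes interleukin 21, a helper cytokine that acts on B cells and on CD8+ T cells. It measured 25.9 and 35.6 CPM in the CD4+ libraries and 0.292, 0.448 and 1.12 CPM in the CD8+ libraries. Both CD4+ libraries were high and all CD8+ libraries were near the lower end of detection, with no overlap (log2 5.62, SE 0.44, adjusted p = 4.7e-05). Prf1 encodes perforin, the pore-forming protein of cytotoxic granules, and ran the other way at 1.61 and 0.973 CPM against 33.6, 24.3 and 22.4 CPM (-4.36, SE 0.40, adjusted p = 0.00012). The 250 bases before the annotated start of each gene are shown because these 2 genes stand for the helper and the killing side of the comparison. Both are from RefSeq on GRCm38.p6 and read 5′ to 3′ on the strand of the gene, with capitals marking a match to the RUNX core TGTGGT or ACCACA, or to the T-box core GGTGTG or CACACC. RUNX3 and the T-box factors EOMES and T-bet are known regulators of cytotoxic T cell genes.
Prf1, chr10:61297586-61297835, plus strand: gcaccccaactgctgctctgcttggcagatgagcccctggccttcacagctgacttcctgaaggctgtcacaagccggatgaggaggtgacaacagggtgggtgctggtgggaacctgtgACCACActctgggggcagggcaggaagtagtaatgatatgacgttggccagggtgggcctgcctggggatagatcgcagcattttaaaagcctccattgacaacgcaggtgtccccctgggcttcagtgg
Il21, chr3:37232637-37232886, minus strand: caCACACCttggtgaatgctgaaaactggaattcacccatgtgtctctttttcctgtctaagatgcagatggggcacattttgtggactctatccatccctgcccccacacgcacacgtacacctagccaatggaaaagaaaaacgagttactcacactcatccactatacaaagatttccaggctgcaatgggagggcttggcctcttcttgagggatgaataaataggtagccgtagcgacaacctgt
The Prf1 window holds 1 RUNX core, at base 121, and no T-box core. The Il21 window holds 1 T-box core, at base 3, and no RUNX core. Windows of Cd8a, Eomes and Foxp3 were also searched and held neither core. Over 32851 promoters of the same length, 14% held the RUNX core and 16.3% the T-box core. Among promoters of genes called lower in CD4+ cells the shares were 22.3% and 21.4% of 103, and among those called higher 15.7% and 16.5% of 230. Among all tested genes they were 11.5% and 15.9%. Matches are letters only and are given as a description.

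Follicular helper genes split by member. Of 23 tested, 8 were called higher and none lower in CD4+ cells (median 0.40). Those called were Il21, Il4, Cd40lg, Angptl2, Izumo1r, Maf, Icos and Asb2. Maf, a transcription factor that drives Il21 and Il10, measured 366 and 332 CPM against 65.5, 59.7 and 72.3 CPM, with no overlap and little spread (2.41, SE 0.17, adjusted p = 3.1e-05). Icos, a costimulatory receptor of follicular helper cells, was 303 and 598 CPM against 118, 109 and 126.8 CPM (1.93, SE 0.29). The genes most used to define that cell type did not follow. Bcl6, its master factor, measured 66.9 and 57.7 CPM against 81.6, 63.0 and 80.3 CPM (-0.27, SE 0.23, adjusted p = 0.709). Cxcr5, its homing receptor, measured 6.59 and 4.35 CPM against 6.79, 7.54 and 12.7 CPM (-0.72, SE 0.34, adjusted p = 0.404).

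Most regulatory T cell genes were higher in CD4+ cells. Of 22 tested, 15 were called higher and none lower (median 2.09). Foxp3, the factor that defines regulatory cells (chromosome X, 7573644 to 7595245 on GRCm38), measured 63.2 and 68.8 CPM in the CD4+ libraries against 1.10, 0.896 and 0.893 CPM in the CD8+ libraries (6.09, SE 0.37, adjusted p = 1.1e-05). All CD8+ libraries were at about 1 CPM. Exons of Foxp3 overlap those of Ppp1r3f, Flicr and Ccdc22, and the strand setting of the counting was not given. Ikzf2, which encodes the factor Helios, was 266 and 307 CPM against 65.4, 58.7 and 25.4 CPM (2.52, SE 0.32). Lrrc32, which holds latent TGF-beta on the cell surface, was 10.9 and 8.11 CPM against 0.511, 0.523 and 0.744 CPM (3.98, SE 0.28). The receptor genes Tnfrsf18 (GITR) and Ctla4 were also called, by 1.83 and 1.54. Ctla4 measured 344 and 589 CPM against 210, 121 and 150 CPM, and it lost its call without CD4+ replicate 2, where its log2 difference was 1.09 (adjusted p = 0.215), and without CD8+ replicate 2 or 3. Il10, the gene of an inhibitory cytokine, was 27.4 and 58.2 CPM against 11.7, 7.47 and 6.99 CPM (2.29, SE 0.43). Il2ra (CD25) missed the threshold at 52.2 and 78.6 CPM against 16.6, 27.8 and 21.2 CPM (1.58, SE 0.41, adjusted p = 0.0773). Entpd1 (CD39) measured 79.3 and 69.2 CPM against 91.4, 56.7 and 80.3 CPM, with a log2 difference of -0.04 (SE 0.23).

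Most type 3 genes were higher in CD4+ cells, and their levels were uneven between the CD4+ libraries. Of 13 tested, 8 were called higher and none lower (median 3.03). Il17a, the gene of the main Th17 cytokine, measured 4.50 and 51.7 CPM in the CD4+ libraries, from 67 and 797 counts, and was at 0 in all 3 CD8+ libraries. Against a floor of 3 counts in a CD8+ library, Il17a was at least 125-fold higher in the mean of the CD4+ libraries and at least 20.1-fold higher in the lower of them. Il22, an epithelial-acting cytokine, had 317 counts in the CD4+ libraries together and 1 in the CD8+ libraries, a ratio of 424 with an exact 95% counting interval of 75.6 to 16800. The interval covers counting error only. Il1r1, the interleukin 1 receptor, measured 20.0 and 91.0 CPM against 0.950, 3.21 and 0.670 CPM, and Il23r 6.99 and 15.1 CPM against 0.438, 0.747 and 0 CPM. Replicate 2 was the higher CD4+ library for each of these 4 genes, and replicate 1 was still above every CD8+ library. The summed level of the list was 730.5 and 1207 CPM in the CD4+ libraries and 425 to 456 CPM in the CD8+ libraries, and the count of higher calls was 5 without CD4+ replicate 2 or without CD8+ replicate 2.

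Most type 2 genes were also higher. Of 8 tested, 6 were called higher and none lower (median 2.42). Members recur in other lists: Ccr8 among regulatory, Il4 among follicular helper and Gata3 among CD4 lineage genes. This list is thus no separate measure of those. Ccr4, a chemokine receptor of Th2 and regulatory cells, measured 62.6 and 86.3 CPM against 1.39, 0.896 and 1.26 CPM (5.96, SE 0.38, adjusted p = 1.3e-05). Ccr8, a receptor of the same kinds of cell, was 42.4 and 39.8 CPM against 1.75, 0.822 and 0.818 CPM (5.17, SE 0.37). Il4 was 24.6 and 9.80 CPM against 0.511, 0.149 and 0.149 CPM (5.94, SE 0.67), with replicate 1 the higher CD4+ library. Gata3, the Th2 factor, differed less, at 66.2 and 78.6 CPM against 38.1, 36.8 and 32.1 CPM (1.02, SE 0.14).

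Type 1 genes showed no such pattern. Of 13 tested, Il12rb1 was called higher (1.02) and Havcr2 lower (-1.26), and the list median was 0.19. Neither call held when any CD4+ library, CD8+ replicate 2 or CD8+ replicate 3 was left out, and Havcr2 was also lost without CD8+ replicate 1. Tbx21 encodes T-bet, the type 1 factor, and measured 34.4 and 33.2 CPM against 27.6, 33.3 and 26.6 CPM (0.21, SE 0.21, adjusted p = 0.755). Ifng, the gene of interferon gamma, measured 253 and 232 CPM against 269, 222 and 146 CPM (0.19, SE 0.29, adjusted p = 0.858). The groups overlapped for both genes, so a difference was not detectable with these libraries. Tnf measured 111 and 101 CPM against 67.3, 72.3 and 74.9 CPM (0.57, SE 0.17, adjusted p = 0.14). Over the 22 cytokine genes tested, 13 were higher and none lower (median 2.47, also with Il17a at its bound), and without CD4+ replicate 2 the count was 7. Besides those above they were Il2, Csf2, Il13, Il17f, Areg, Tnfsf8 and Tnfsf11. Tnfsf11 (RANKL) was 16.9 and 25.8 CPM against 2.56, 0.822 and 0.818 CPM (3.92, SE 0.50).

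**Figure D2:**
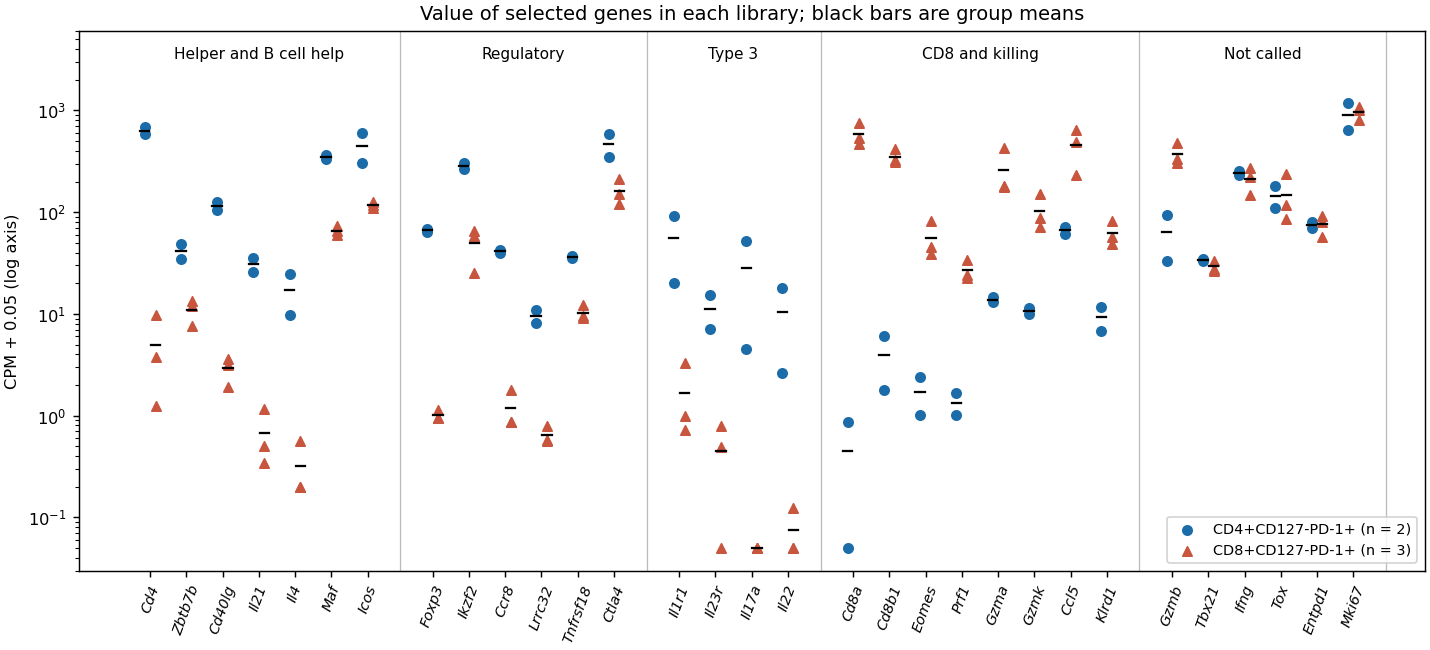
CPM plus 0.05 on a log axis for selected genes (x axis) in each library, CD4+CD127-PD-1+ (blue circles, n = 2) and CD8+CD127-PD-1+ (red triangles, n = 3), with black bars at group means. Foxp3 lies at 63.2 and 68.8 CPM against about 1 CPM, and Tbx21, Ifng, Tox and Entpd1 overlap between the groups.

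Of 14 CD8 lineage genes tested, 10 were called lower in CD4+ cells and none higher (median -2.46), and the count was 6 without CD4+ replicate 2. Those 10 include Cd8a and Cd8b1, the genes of the sort label, which also enter the median and are no findings. Members recur in other lists: Nkg7 and Cst7 among killing, Klrd1 and Klrk1 among killer lectin-like, Cd160 among inhibitory and Ccl5 among chemokine genes. Those lists are thus no separate measures of this one. Of 20 genes for granzymes, perforin and killing, 6 were called lower and none higher (median -0.74): Prf1, Gzma, Gzmm, Gzmk, Nkg7 and Cst7. The 5 remaining listed members, Gzmd, Gzme, Gzmf, Gzmg and Gzmn, were listed at 0 in all 5 libraries and were not tested. Gzma measured 13 and 14.5 CPM in the CD4+ libraries against 181, 424 and 176 CPM in the CD8+ libraries (-4.24, SE 0.77, adjusted p = 0.014). Gzmk, a granzyme of memory-like CD8+ cells, was 11.5 and 9.86 CPM against 149, 88.5 and 71.5 CPM (-3.27, SE 0.52, adjusted p = 0.0062). The groups did not overlap for either gene, but that was a condition for the 10 smallest differences they were named from. Both lost their call without CD4+ replicate 2, where Prf1 was the 1 killing gene still called, and Gzma also lost it without CD4+ replicate 1. Gzmb, the main apoptosis-inducing granzyme, just missed the threshold at 32.9 and 94.4 CPM against 336, 476 and 301 CPM (-2.54, SE 0.60, adjusted p = 0.052). Fasl, the gene of the death ligand, was not called at 53.3 and 52.9 CPM against 127.2, 90.6 and 65.2 CPM (-0.83, SE 0.33). The granule release genes Lyst, Rab27a and Unc13d had log2 differences of 0.08, 0.07 and 0.29, with overlapping groups for the first 2.

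Eomes, a T-box factor of cytotoxic and memory CD8+ cells, measured 2.35 and 0.973 CPM against 81.3, 45.4 and 38.7 CPM (-5.05, SE 0.44, adjusted p = 9.6e-05). It was the only gene called lower among 40 transcription factors tested, of which 9 were called higher (median 0.21), among them Foxp3, Ikzf2, Maf and Zbtb7b. Runx3, the CD8 lineage factor, measured 66.8 and 98.2 CPM against 139, 130 and 111 CPM and was not called (-0.62, SE 0.22, adjusted p = 0.243). Tox, a factor of exhausted T cells, measured 179 and 109 CPM against 238, 86.1 and 119 CPM (-0.04, SE 0.38), and Tcf7, a factor of memory-like T cells, measured 91.2 and 106 CPM against 93.8, 101 and 109 CPM (-0.04, SE 0.15). Prdm1 and Id2, factors of effector cells, had log2 differences of 0.20 and 0.06.

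Receptors of the killer lectin-like family, used by NK cells and cytotoxic T cells to sense MHC class I and stress ligands, were called in both directions. Of 22 tested, 5 were called lower in CD4+ cells and 1 higher (median -1.55). Klrd1 (CD94) measured 11.7 and 6.75 CPM against 56.5, 82.7 and 48.8 CPM (-2.76, SE 0.31, adjusted p = 0.00079). Klrk1 (NKG2D) was 22.3 and 17.3 CPM against 92.8, 139 and 80.3 CPM (-2.39, SE 0.37). Klrc1, Klrc2 and Klra7 were the other 3 lower calls, and Klrb1f was the higher one at 47.9 and 44.7 CPM against 12.3, 15.4 and 13.2 CPM (1.77, SE 0.37). Without CD4+ replicate 2 the count of lower calls was 1, and Klrb1f was not called when any 1 of the 5 libraries was left out. Genes of this family are close paralogs, so reads may be shared between members. Of 9 markers of NK and innate lymphoid cells, 6 are members of this same family, so that list is no separate measure of it. Its 3 other members, Ncr1, Il5ra and Kit, were not called. The NK receptor gene Ncr1 measured 6.59 and 1.49 CPM against 7.01, 7.99 and 16.6 CPM (-1.38, SE 0.57, adjusted p = 0.31). Kit, a growth factor receptor of innate lymphoid and mast cells, measured 6.05 and 3.57 CPM against 21.8, 7.24 and 8.48 CPM (-1.38, SE 0.62). The part of NK cells in the list's difference was not tested.

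Inhibitory receptor genes were called in both directions. Of 17 tested, 3 were lower (Cd160, Cd244 and Havcr2) and 1 higher (Ctla4), with a median of -0.09. Without CD4+ replicate 2 the counts were 1 lower and 0 higher (edgeR), and Cd244 was among the calls lost (adjusted p = 0.078). Cd160 measured 5.98 and 4.80 CPM against 33.7, 33.5 and 26.3 CPM (-2.53, SE 0.32, adjusted p = 0.0016). Cd244 (2B4) was 11.2 and 4.41 CPM against 41.6, 39.6 and 35.9 CPM (-2.32, SE 0.40). Lag3 measured 6.93 and 8.18 CPM against 22.7, 12.8 and 10.3 CPM without a call (-1.02, SE 0.42, adjusted p = 0.311), and Tigit overlapped between groups (0.11, SE 0.47). Costimulatory receptors were called in 1 direction, with 6 of 15 higher and none lower (median 0.75): Tnfrsf4, Tnfrsf25, Icos, Tnfrsf18, Slamf1 and Cd5.

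Among 16 chemokine genes, Ccl5 was called lower and Ccl1 higher (median -0.58). Ccl5 (RANTES), made by cytotoxic cells, measured 71.0 and 61.0 CPM against 646, 486 and 232 CPM (-2.78, SE 0.45, adjusted p = 0.0068), and it lost its call without CD4+ replicate 2 (-2.69, adjusted p = 0.0909). Ccl1 lost its call without CD4+ replicate 2, CD8+ replicate 2 or CD8+ replicate 3 (adjusted p = 0.204, 0.0853 and 0.088). Among 18 chemokine receptor genes, Ccr4 and Ccr8 were higher and Cxcr2 lower. Receptors of inflamed tissue were not called: Cxcr3 measured 79.5 and 97.2 CPM against 84.1, 74.6 and 65.4 CPM (0.24, SE 0.23), and Cxcr6 measured 209 and 259 CPM against 199, 127.3 and 98.5 CPM (0.72, SE 0.30). Of 24 integrin, selectin and egress genes, 2 were higher (Itgb3 and Itgb8) and 2 lower. Itga4, the alpha 4 integrin chain, was the abundant one of the lower pair, at 614 and 689 CPM against 1265, 1288 and 1242 CPM (-0.96, SE 0.15, adjusted p = 0.0062), and the other was S1pr5. Itga4 lost its call without CD4+ replicate 1 (adjusted p = 0.058), and S1pr5 when any library but CD8+ replicate 1 was left out. The count of higher calls was likewise 1 when any library but CD8+ replicate 1 was left out. Itgae (CD103) was not called, at 14.2 and 9.73 CPM against 64.7, 25.1 and 9.89 CPM, where replicates of the CD8+ group ranged widely. Of 16 tissue residency genes, P2rx7 was higher and Amica1 lower, the latter not without CD4+ replicate 2. P2rx7, an ATP-gated channel, measured 226 and 160 CPM against 54.5, 61.6 and 57.3 CPM (1.74, SE 0.19, adjusted p = 0.00054).

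Programs shared by activated T cells gave few calls. None of 29 cell cycle genes was called (edgeR, median -0.24), and 27 of the 29 had a negative log2 difference. Mki67, a marker of cycling cells, measured 639 and 1179 CPM against 800, 1007 and 1076 CPM (-0.08, SE 0.44). None of 17 glycolysis, 16 survival and death, or 13 pan-T genes was called. Cd3e, a chain of the T cell receptor complex, measured 559 and 588 CPM against 721, 481 and 444 CPM (0.06, SE 0.18). Of 26 receptor signalling genes, Cd5 and Rasgrp1 were higher (1.21 and 0.64). The count was 0 without CD4+ replicate 2, CD8+ replicate 2 or CD8+ replicate 3 and 0 with the 5 libraries fitted alone (edgeR), and 6 without CD8+ replicate 1. Of 15 genes of the common gamma chain receptors Socs2 and Il9r were higher, and 1 gene was without CD4+ replicate 2 or CD8+ replicate 2. Socs2, an inducible inhibitor of cytokine signalling, measured 23.3 and 21 CPM against 3.51, 3.21 and 4.09 CPM (2.62, SE 0.22, adjusted p = 8.3e-05). Of 21 inflammatory cytokine receptor genes 6 were higher: Il1r1, Il23r, Il1rl1, Il12rb1, Il27ra and Tgfbr2. The count was 2 without CD4+ replicate 2 or CD8+ replicate 2, and 3 without CD8+ replicate 3 or with the 5 libraries fitted alone. Of 22 interferon-stimulated genes Isg20 was higher (4.55% of the list), and of 15 genes induced by tissue digestion Junb was higher (6.67%). Each is a single gene, beside 2.44% called among all tested genes. The log2 differences were 0.94 and 0.73. Isg20 lost its call when any library but CD4+ replicate 1 was left out, and Junb without CD4+ replicate 2 or CD8+ replicate 3.

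**Figure D3:**
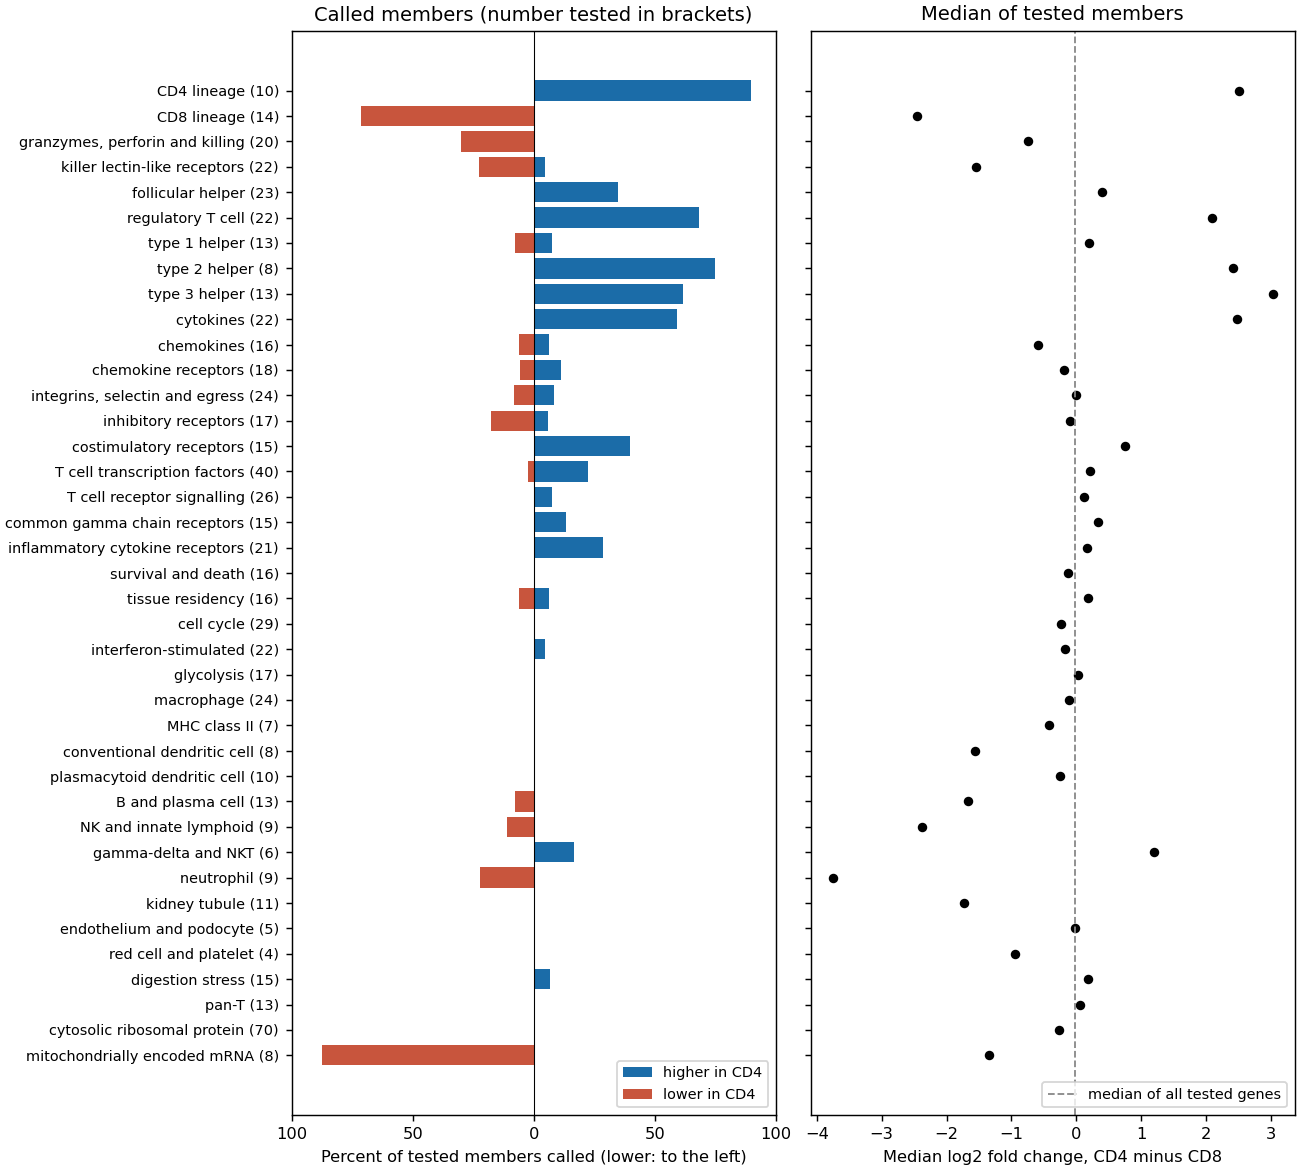
For each gene list, the percent of tested members called higher (blue, to the right) or lower (red, to the left) in CD4+ cells, and at right the median log2 fold change of CD4 minus CD8, with a dashed line at the median of all tested genes. CD4 lineage (90% higher), regulatory (68.2%) and type 2 (75%) lists lie at the right, and the CD8 lineage list (71.4% lower) at the left. The 2 lineage lists include the genes of the sort labels, Cd4, Cd8a and Cd8b1.

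Some genes with the largest differences belonged to none of these roles. Podnl1, a leucine-rich repeat protein, measured 75.3 and 102 CPM against 8.76, 7.24 and 5.21 CPM (3.65, SE 0.27, adjusted p = 3.1e-05). Ttn, the giant muscle protein titin, measured 201 and 246 CPM against 29.5, 30.5 and 20.6 CPM (3.06, SE 0.28), and Neb, the muscle protein nebulin, 137 and 126.6 CPM against 34.4, 14.0 and 12.1 CPM (2.70, SE 0.42). Both are very long transcripts, so their CPM are not comparable with those of short genes. Adgrg5, an adhesion G protein-coupled receptor, was lower at 4.64 and 3.63 CPM against 34.1, 48.8 and 25.8 CPM (-3.13, SE 0.30, adjusted p = 0.0002). All CD4+ libraries lay on 1 side of all CD8+ libraries for these 4 genes. Lack of overlap was a condition for picking them, so it is no separate result.

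Among all tested genes 2.44% were called. Of 103 T cell receptor alpha variable and joining segments tested, 3 were higher and 1 lower in CD4+ cells (3.88% called). Their median log2 difference was 0.63, with 87 of 103 positive, and every CD4+ library lay above every CD8+ library for 43 segments and below for 4, beside 14.3% above and 13.5% below among all tested genes. Of 35 beta variable, diversity and joining segments 1 was higher and 1 lower (5.71% called, median -0.20). Each of these calls was lost in 3 or more of the 5 leave-outs. Traj18, the joining segment of the invariant receptor of NKT cells, measured 20.9 and 10.7 CPM against 4.38, 3.21 and 5.66 CPM (1.84, SE 0.36, adjusted p = 0.02). Zbtb16 encodes PLZF, the factor of NKT and other innate-like T cells, and measured 27.6 and 14.5 CPM against 3.51, 6.42 and 5.73 CPM (2.01, SE 0.47, adjusted p = 0.047). CD4+ replicate 1 was the higher library for both. No alpha segment was called higher without CD8+ replicate 2 (edgeR), so the call of Traj18 was lost there. The call of Zbtb16 was lost when any 1 of the 5 libraries was left out. The 8 listed genes of gamma-delta and NKT cells summed to 61.4 to 145 CPM in CD4+ and 37.8 to 97.7 CPM in CD8+ libraries. The part of such cells was not tested.

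Markers of other kidney cells were present in all 5 libraries. Macrophage genes were not called (0 of 24, median -0.11), with summed levels of 4240 and 1998 CPM in the CD4+ libraries and 2393 to 4222 CPM in the CD8+ libraries. Lyz2 measured 800 and 348 CPM against 480, 993 and 868 CPM. MHC class II genes of antigen-presenting cells were not called (0 of 7), and Cd74 measured 4142 and 1505 CPM against 3288, 2709 and 4468 CPM. Conventional dendritic cell genes were not called either (0 of 8, median -1.56), but their sum was 185 and 70.4 CPM against 318 to 655 CPM without overlap, and CD8+ replicate 1 was highest. Itgax, the integrin chain CD11c, measured 56.2 and 24.9 CPM against 134, 147 and 141 CPM without overlap (-1.80, SE 0.44, adjusted p = 0.0614), and it was called in 6 of 15 alternatives. Xcr1, a marker of cross-presenting dendritic cells, measured 11.9 and 9.28 CPM against 185, 44.0 and 36.1 CPM (-3.06, SE 1.01, adjusted p = 0.189). Some such dendritic cells can carry CD8 alpha homodimers in mice, and their part in the CD8+ libraries was not tested. For B and plasma cells 1 of 13 genes was called, Igkc (-2.56), which lost its call when any 1 of the 5 libraries was left out (adjusted p = 0.071 to 0.24), and the sums were 396 and 194 CPM against 561 to 786 CPM.

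Neutrophil genes stood apart by library. S100a9 measured 3.90 and 3.25 CPM in the CD4+ libraries against 9.71, 75.7 and 84.3 CPM in the CD8+ libraries, and Cxcr2 measured 1.61 and 0.649 CPM against 4.67, 10.8 and 48.1 CPM. Both were called lower in CD4+ cells (-3.98 and -4.22), of 9 neutrophil genes tested. CD8+ replicates 2 and 3 carried most of the signal, with summed levels of 37.8 and 25.1 CPM in the CD4+ libraries against 47.4 to 325 CPM in the CD8+ libraries. Without CD8+ replicate 2 or 3, or without either CD4+ library, no neutrophil gene was called. Kidney tubule genes were not called (0 of 11), with sums of 42.6 and 55.7 CPM against 31.1 to 78.9 CPM, nor were plasmacytoid dendritic cell (0 of 10), endothelium and podocyte (0 of 5) or red cell and platelet genes (0 of 4).

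**Figure D4:**
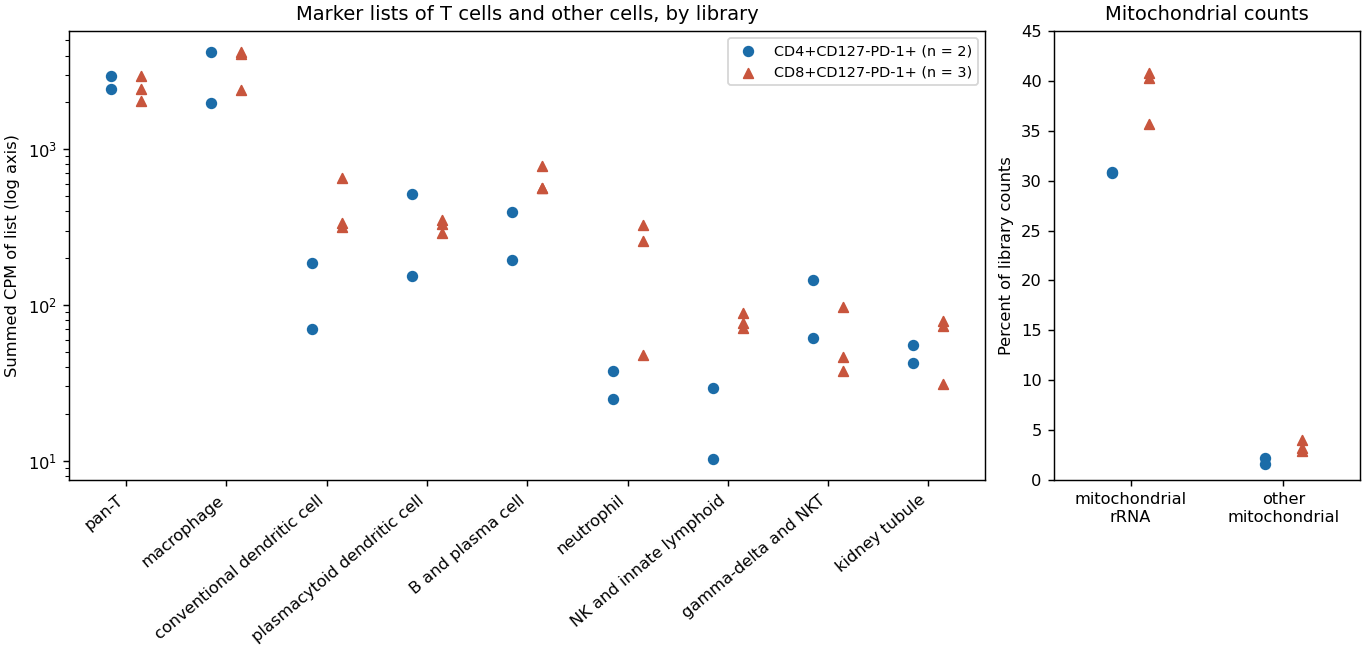
Left, summed CPM on a log axis of marker lists (x axis) in each library, CD4+CD127-PD-1+ (blue circles, n = 2) and CD8+CD127-PD-1+ (red triangles, n = 3). Right, mitochondrial rRNA and other mitochondrial counts as percent of library counts, where the CD4+ libraries lie near 31% rRNA and the CD8+ libraries between 35.7% and 40.8%.

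Mitochondrial transcripts took a larger share of the CD8+ libraries than of the CD4+ libraries. Mitochondrial rRNA made up 30.8% of counts in both CD4+ libraries and 35.7%, 40.3% and 40.8% in the CD8+ libraries, and other mitochondrial genes 2.17% and 1.62% against 2.85%, 3.18% and 4.03%. The groups did not overlap for either share (means 30.8% ± 0.0354 (SD, n = 2) against 38.9% ± 2.83 (SD, n = 3), two-sided exact permutation p = 0.2, and 1.89% ± 0.385 against 3.35% ± 0.612, two-sided exact permutation p = 0.1). The smallest p that 2 against 3 libraries allow is 0.1. In the CD127+PD-1- libraries of both lineages the shares were 28.1% to 31.8% and 1.76% to 2.12%. The CD8+CD127-PD-1+ libraries were thus the high group. Of 8 mitochondrially encoded mRNAs tested, 7 were called lower in CD4+ cells (median -1.34). One of them was mt-Co1, a subunit of cytochrome c oxidase, at 10830 and 9547 CPM against 15070, 17910 and 22280 CPM (-0.85, SE 0.15, adjusted p = 0.012). The count was 0 without CD4+ replicate 2 (edgeR), 3 without CD8+ replicate 3 and 1 with the 5 libraries fitted alone. Cytosolic ribosomal protein genes were not called (0 of 70 by edgeR, median -0.27), though 69 of 70 had a negative difference. With all mitochondrial genes left out, 256 genes were higher, 253 of them among the 262, and all 56 called genes named by rule were still called.

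The CD127+PD-1- libraries give the lineage difference in the opposite state. They are other libraries, but both contrasts come from 1 fit over all 11 libraries with a shared estimate of spread. Numbers in the sample descriptions recur in both gates, and whether the gates share pools of mice was not tested. There, 723 genes (4.42%) were called between CD4+ and CD8+ cells. Of the 400 genes called in CD127-PD-1+ cells, 380 (95%) had the same sign in CD127+PD-1- cells, against 64.3% of all tested genes. Of the 400, 257 (64.2%) were also called there in the same direction, which is 35.5% of the 723, and none was called in the opposite direction. There Foxp3 measured 51.2 to 96.2 CPM in CD4+ cells and 0.876 to 2.43 CPM in CD8+ cells, a log2 difference of 5.29 beside 6.09. Il21 measured 1.77 to 2.57 CPM against 0.0733 to 0.347 CPM there, a difference of 3.39 beside 5.62. Prf1 measured 2.89 to 6.61 CPM against 24.0 to 31.8 CPM, a difference of -2.36 beside -4.36. The change in the lineage difference between states was 2.23 (SE 0.83, adjusted p = 0.823) for Il21 and -2.002 (SE 0.47, adjusted p = 0.545) for Prf1, and neither was called.

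A single gene, 0.00611% of those tested, was called for a lineage difference that differed between the states, and 897 genes had an unadjusted p under 0.05. This gene was Nt5e (chromosome 9, 88327197 to 88372092 on GRCm38), which encodes CD73, the surface enzyme that turns AMP into adenosine. In CD127-PD-1+ cells it measured 62.3 and 69.0 CPM in the CD4+ libraries against 19.8, 15.7 and 17.6 CPM in the CD8+ libraries (1.89, SE 0.17, adjusted p = 0.00012). In CD127+PD-1- cells it measured 63.2, 63.6 and 86.1 CPM against 73.9, 83.2 and 63.8 CPM (-0.05). The CD8+CD127-PD-1+ libraries were the low group, and the other 3 groups overlapped. The difference between the states was 1.94 (SE 0.23, adjusted p = 0.041), and it was not called without CD4+ replicate 2, CD8+ replicate 2 or CD8+ replicate 3 (adjusted p = 0.136 to 0.215).

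**Figure D5:**
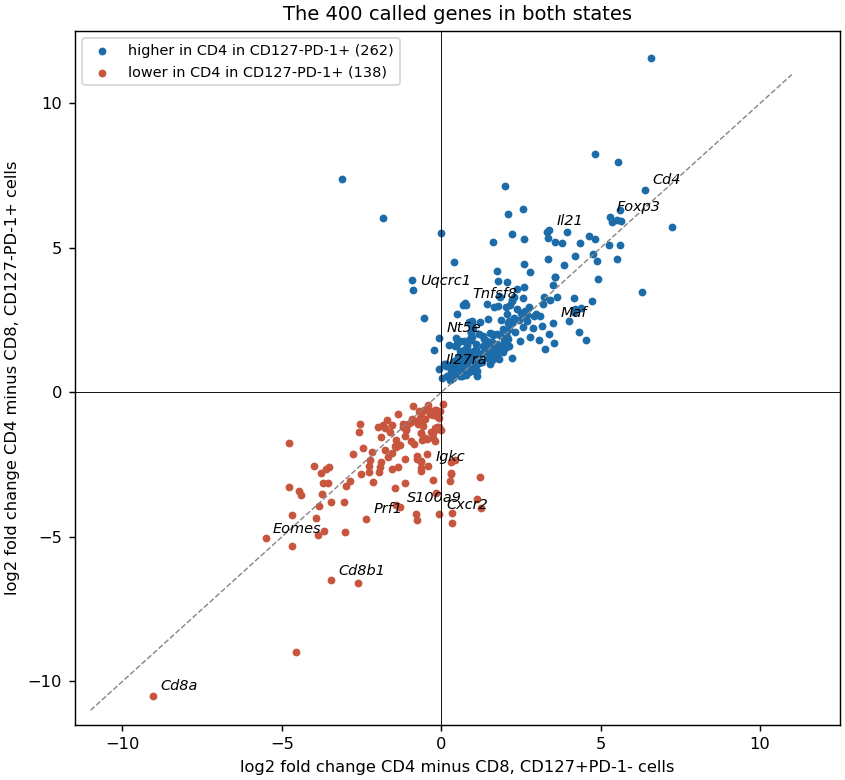
Log2 fold change of CD4 minus CD8 in CD127-PD-1+ cells (y axis) against CD127+PD-1- cells (x axis) for the 400 genes called in CD127-PD-1+ cells, 262 higher (blue) and 138 lower (red), with a dashed line at equal values. Of these genes 380 have the same sign on both axes, and Nt5e lies near 0 on the x axis.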

How the data were processed

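The deposited table holds raw read counts per gene for 46078 gene identifiers, made by the authors with STAR, featureCounts and the mouse build GRCm38, per the submitters' processing notes; for versions, annotation release and strand setting: not given in the sources used here. RNA was amplified by single primer isothermal amplification, per the labels' protocols. 1 column that matches no labelled sample was not used. Counts were tested in edgeR 4.0.16 (R 4.3.3): TMM scaling, filterByExpr, a quasi-likelihood fit of 4 group means over all 11 libraries, which share 1 estimate of spread, and Benjamini-Hochberg adjustment over 16365 genes. The difference between states was the difference of the 2 lineage contrasts in that fit. CPM use TMM-scaled library sizes. Shares of mitochondrial counts were compared by exact permutation.

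The members and the 41 gene lists were chosen with earlier results of these data known. Lists share members and are described by counts and medians. Summed levels cover all listed members found, tested or not. The share called over all tested genes, 2.44%, is the background for each list count. Named genes were the sort markers with Il21 and Prf1, the 10 largest and 10 smallest log2 differences among called genes with average log2 CPM of at least 4 and no overlap, and the 3 smallest p per list (the most abundant member where none was called). Other members are named to account for their list and were chosen after their values were seen. Of 515 listed symbols 514 were found. The script was tested on simulated data. Alternatives were RLE scaling, other filters, DESeq2 1.42.0, limma-voom 3.58.1, the 5 libraries alone, replicate blocks, thinning, no mitochondrial genes and each library left out. Promoter sequences came from RefSeq (49 of 69 named genes matched). The values of 1 list member are not reported here.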

Additional observations from a re-analysis of the deposited data

Results flagged for a closer look

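For Nt5e, the lineage difference in CD127-PD-1+ cells was larger than that in CD127+PD-1- cells by 1.944 on the log2 scale (SE 0.23, edgeR adjusted p = 0.041), which is the only such difference called among the genes tested. It was between 1.86 and 2.03 in every alternative run, and its adjusted p was above 0.05 in the fits with a replicate block (0.101 and 0.234) and without CD4+ replicate 2 (0.18), CD8+ replicate 2 (0.136) or CD8+ replicate 3 (0.215). Nt5e was chosen after its values were seen.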

How the results depend on the processing

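Scaling, the stricter filter, limma-voom, thinning and leaving out mitochondrial genes kept the counts of 262 higher and 138 lower genes within 1.5 times. With no filter on low counts they were 443 and 348, with DESeq2 425 and 292, and with the 5 compared libraries alone 143 and 71. Leaving out 1 of the 5 libraries gave 96 to 244 higher and 30 to 140 lower genes. For the difference between states, 1 gene was positive and 0 negative; with no filter 27 and 58, with DESeq2 20 and 40, and with 1 library left out 0 to 2 and 0 to 4. The cause of these shifts was not tested. Similar totals can hold other genes. Without CD8+ replicate 1, 201 of the 262 higher and 108 of the 138 lower calls stayed. The number of pools, 2 against 3, limits precision.

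Replicate numbers are shared between groups, and whether they mark pairing could not be decided. Deviations of same-numbered libraries correlated at -0.0399 and 0.127 (title numbers), and at 0.127 for the 1 shared description number. With 2 CD4+ libraries, their deviations from the group mean are mirror images. Each CD8+ library therefore gives equal values of opposite sign with them, whatever the pairing. Same-numbered libraries of the CD127+PD-1- gate were not tested. With a replicate block on title numbers 235 genes were higher and 176 lower, and on description numbers 199 and 136. Of the 262 higher and 138 lower calls, 210 and 108 stayed with the title block. With the description block 159 and 88 stayed. For the difference between states the blocks gave 0 positive and 0 negative (title) and 0 positive and 1 negative (description). Of 56 called named genes, 51 and 49 stayed called with these blocks.

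No named call changed sign under any alternative, and 32 of the 56 stayed called without CD4+ replicate 2.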
